A study of Mus musculus with 8 samples.

Results

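The common gamma-chain cytokine receptors were followed in stimulated EL4 cells with and without the transcription factors T-bet and GATA3. The genes were Il2ra, Il2rb, Il2rg, Il4ra, Il7r, Il9r, Il15ra, Il21r and Il13ra1, 9 of the 54146 genes with values, and were taken by symbol with all transcripts of a gene summed. Il2rg encodes the common gamma chain, which is shared by the receptors for IL-2, IL-4, IL-7, IL-9, IL-15 and IL-21. Each of these receptors adds its own ligand-binding chain, the IL-2 and IL-15 receptors also share the beta chain encoded by Il2rb, and signals pass through the kinases JAK1 and JAK3 to STAT proteins. Il13ra1 encodes a chain that can take the place of the gamma chain beside IL-4Rα and binds IL-13. In T cells these receptors are known for controlling growth, survival and effector differentiation.

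EL4 is a C57BL/6 mouse T lymphoblast line, and every library came from cells given the phorbol ester PMA at 50 ng/ml and ionomycin at 1 μM for 4 h, so no unstimulated cells were compared. The 4 lines carried GFP and Plum (GFP + Plum, fluorescent proteins only), FLAG-T-bet and Plum (T-bet + Plum), GFP and HA-GATA3 (GFP + GATA3), or FLAG-T-bet and HA-GATA3 (T-bet + GATA3). Each line gave 2 RNA-seq libraries, 8 in all, and replicates were harvests of one line on different days, so differences between lines cannot be told apart from differences between the cell populations that were transduced. Library totals were 8038565 to 16003519 estimated counts.

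Tbx21, which encodes T-bet, was at 129 to 160 CPM (counts scaled to a common library total, with TMM factors) in the 4 libraries labelled with T-bet and at 1.78 to 3.59 CPM in the others. Gata3 was at 283 and 326 CPM (GFP + GATA3) and 204 and 165 CPM (T-bet + GATA3), and at 39.8 and 53.3 CPM (GFP + Plum) and 25.8 and 34.9 CPM (T-bet + Plum), which carry only the endogenous gene. It was thus well above the other lines where labelled, but also lower with T-bet (averaged log2 FC -0.67, SE 0.14, edgeR FDR = 0.0174). Of 10 T cell markers, 8 exceeded 1 TPM (counts scaled for transcript length and library total) in at least 1 library. Among these Cd4 was at 0.235 to 2.49 TPM. Cd247 reached at most 0.511 TPM, and Cd8a was below 0.1 TPM in every library. The summed level of the 10 markers was 2068 to 3629 TPM, with Trbc2 alone at 1432 to 2871 TPM. Summed B cell, myeloid and fibroblast or epithelial markers reached at most 0.332, 1.05 and 0.408 TPM. Of 4 NK cell markers only Klrd1 exceeded 1 TPM, at 17.8 to 44.0 TPM with T-bet and 0.421 to 0.878 TPM without, and Ncr1, Klrb1c and Eomes were below 0.1 TPM in every library.

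On the TPM scale, which allows levels of different genes to be compared per length, the shared chain was the most abundant of the 9 genes in all 8 libraries. Il2rg was at 111 to 150 TPM. The order of the others varied between libraries. Il2ra, at 7.37 to 55.4 TPM, and Il9r, at 12.1 to 50.2 TPM, ranked 2 to 4 of the 9, Il2rb, at 4.57 to 30.7 TPM, ranked 3 to 6, and Il15ra, at 2.78 to 24.4 TPM, ranked 2 to 7. Il4ra was at 3.07 to 14.9 TPM (rank 5 to 7) and Il21r at 0.104 to 3.55 TPM (rank 7 or 8). Il7r was at 7.85 to 16.1 TPM and ranked 3 to 5 without T-bet, and was at 0.354 to 3.16 TPM and ranked 7 or 8 with it. Il13ra1 had at most 2 counts in any library, below the floor of 3 counts, and was not detectable at this depth. The ratio of the Il2rg level to that of Il4ra was 24.6 to 42.2 in the libraries without T-bet and 8.03 to 13.2 in those with it. For Il7r the ratio was 7.75 to 15.3 without T-bet and 35.0 to 395 with it, so the gamma chain exceeded its IL-7 partner chain in every library.

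Of the 9 genes, 8 passed edgeR's filter on low counts and Il13ra1 did not. Il21r, at 2 to 13 counts without T-bet, passed through the lines in which it was higher, so that it had to differ. For the question of what T-bet changed, the T-bet lines were compared with the lines without it, averaged over both GATA3 states, in one edgeR quasi-likelihood fit of the 8 libraries with Benjamini-Hochberg adjustment over 14791 genes. At an FDR of at most 0.05, 4 receptor genes were higher with T-bet (Il4ra, Il21r, Il2rb and Il15ra) and 1 was lower (Il7r), where 8.55% of all genes tested were called higher and 6.61% lower. Il2rg, Il2ra and Il9r did not pass the test. Without Il21r, for the reason given, 3 of 7 were higher and 1 lower. The median log2 FC of these 7 was 0.36, beside 0.017 over all genes tested. That median is the value of a single gene, Il2ra, which was not called (SE 0.54, FDR = 0.707), so it does not describe the group. Standard errors (SE) are approximate, being derived from the log2 FC and the F statistic. The 5 calls held with each library left out in turn. In these bulk libraries fewer cells expressing a gene and less RNA per cell cannot be told apart.

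**Figure D1:**
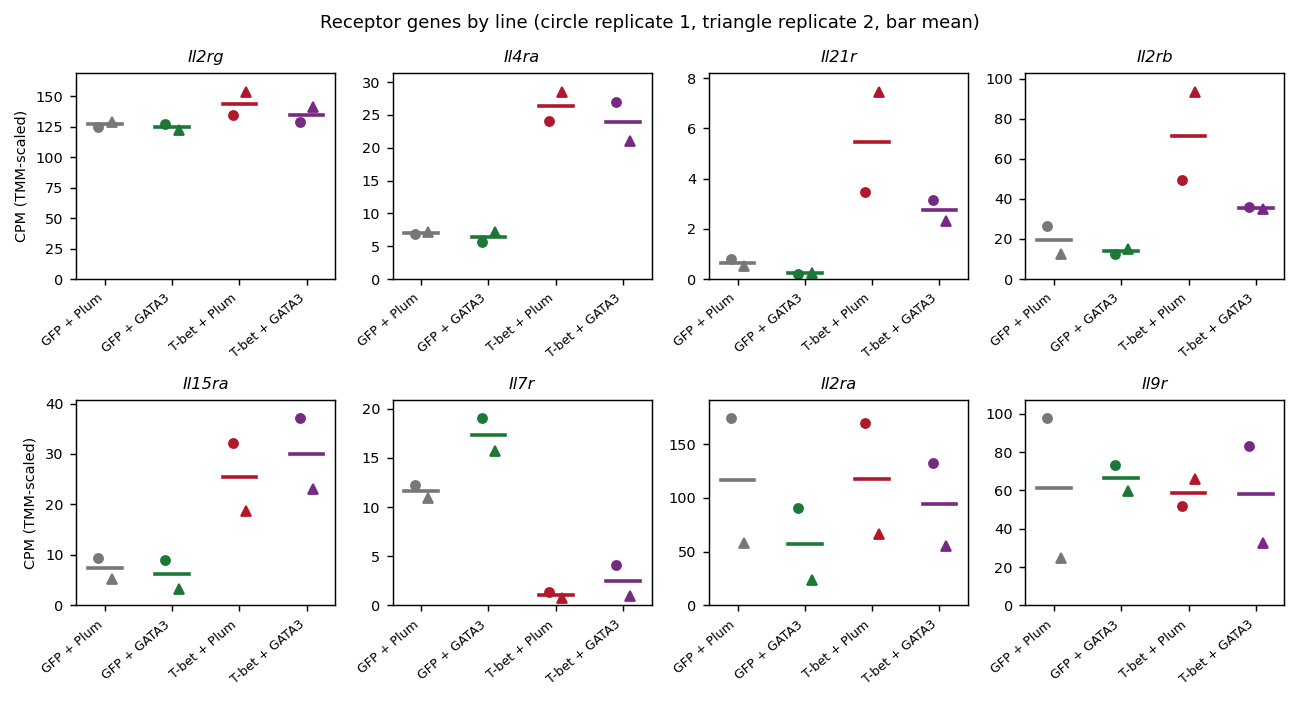
CPM of the 8 receptor genes that passed the filter, in the 4 lines. Circles are replicate 1, triangles replicate 2 and bars the mean of both, on linear axes that start at 0 and differ between genes. In the Il4ra panel the T-bet libraries sit between 21.1 and 28.5 CPM and the others between 5.65 and 7.17 CPM, and in the Il2ra panel the circle is above the triangle in every line.

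Il4ra encodes the IL-4Rα chain, which binds IL-4 and is shared by the IL-4 and IL-13 receptors (ENSMUSG00000030748.9, chromosome 7 of GRCm38, 125552120 to 125579474, plus strand). It was at 6.93 and 7.17 CPM (GFP + Plum), 5.65 and 7.10 CPM (GFP + GATA3), 24.1 and 28.5 CPM (T-bet + Plum), and 26.9 and 21.1 CPM (T-bet + GATA3). The libraries with T-bet lay entirely above those without it, and the replicates of a line were close. The averaged log2 FC was 1.90 (SE 0.14, edgeR FDR = 0.000128), a 3.73-fold rise. Il4ra had the lowest FDR among the receptor genes. Its log2 FC was 1.90 in T-bet + Plum versus GFP + Plum (SE 0.20, FDR = 0.00157) and 1.90 in T-bet + GATA3 versus GFP + GATA3 (SE 0.20, FDR = 0.00175).

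Il21r encodes the IL-21 receptor chain and lies next to Il4ra on the same strand (ENSMUSG00000030745.9, chromosome 7, 125603429 to 125633570), with 23.95 kb between the genes. It had 13 and 8 counts in GFP + Plum, 2 and 4 in GFP + GATA3, 28 and 109 in T-bet + Plum, and 29 and 35 in T-bet + GATA3. These counts correspond to 0.804 and 0.507 CPM, 0.191 and 0.254 CPM, 3.48 and 7.45 CPM, and 3.14 and 2.33 CPM in the same order. The T-bet libraries were again above all others, although by TPM the gene ranked 7 or 8 of the 9 in every library. Its averaged log2 FC was 3.29 (SE 0.38, edgeR FDR = 0.000980). Because Il21r passed the filter through the T-bet lines, this call is not read as a result. The values in GFP + GATA3 are at or close to the floor of 3 counts, and folds against that line are accordingly imprecise.

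Il2rb encodes the beta chain of the IL-2 and IL-15 receptors (ENSMUSG00000068227.9, chromosome 15, 78479256 to 78495271, minus strand). Its level was 26.5 and 12.4 CPM (GFP + Plum), 12.7 and 14.8 CPM (GFP + GATA3), 49.7 and 93.5 CPM (T-bet + Plum), and 35.9 and 35.1 CPM (T-bet + GATA3). By CPM no T-bet library overlapped with the others, whereas by TPM T-bet + GATA3 replicate 1, at 9.39 TPM, was below GFP + Plum replicate 1, at 10.7 TPM. The highest values were those of T-bet + Plum, whose replicates differed by more than their mean differed from that of T-bet + GATA3. The averaged log2 FC was 1.62 (SE 0.27, edgeR FDR = 0.00596).

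Il15ra encodes the high-affinity chain that binds and presents IL-15 (ENSMUSG00000023206.16, chromosome 2, 11705290 to 11734317, plus strand). It was measured at 9.47 and 5.20 CPM (GFP + Plum), 8.997 and 3.23 CPM (GFP + GATA3), 32.2 and 18.7 CPM (T-bet + Plum), and 37.1 and 23.0 CPM (T-bet + GATA3). The libraries with T-bet did not overlap with those without it, and replicate 1 was the higher of each pair. Averaged over the GATA3 states, its log2 FC was 2.06 (SE 0.36, edgeR FDR = 0.00739). Both chains that an IL-15 receptor adds to the gamma chain were thus among the genes called higher.

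Il7r, which encodes the IL-7 receptor alpha chain known for naive and memory T cell survival, was the one receptor gene called lower (ENSMUSG00000003882.5, chromosome 15, 9505788 to 9530176, minus strand). It was at 12.3 and 11.0 CPM (GFP + Plum), 19.0 and 15.7 CPM (GFP + GATA3), 1.37 and 0.752 CPM (T-bet + Plum), and 4.11 and 0.931 CPM (T-bet + GATA3). Every library with T-bet was below every library without it, with 11 counts in each T-bet + Plum library and 38 and 14 in T-bet + GATA3. Its averaged log2 FC was -3.19 (SE 0.41, edgeR FDR = 0.00166), a 9.15-fold fall. With each library left out the fall was 7.13- to 14.8-fold, the latter without T-bet + GATA3 replicate 1 (log2 FC -3.88).

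Il2rg showed the smallest spread (ENSMUSG00000031304.18, chromosome X, 101264378 to 101268255, minus strand). It was at 125 and 129 CPM (GFP + Plum), 128 and 122 CPM (GFP + GATA3), 135 and 154 CPM (T-bet + Plum), and 129 and 141 CPM (T-bet + GATA3). The highest library without T-bet and the lowest with it were nearly equal. The averaged log2 FC was 0.15 (SE 0.083, edgeR FDR = 0.292), and an interval of 2 SE on either side ran from -0.018 to 0.31. Counting whole groups, 5 genes (Il4ra, Il21r, Il2rb, Il15ra and Il2rg) had all 4 T-bet libraries above the other 4 by CPM, a pattern found in 12.5% of genes tested, and Il7r had them all below, as did 10.2% of genes. By TPM this held for Il4ra, Il21r, Il15ra and Il7r but not for Il2rb or Il2rg. The pattern by TPM was not counted over all genes, so it has no share to be read against. T-bet + GATA3 replicate 1, at 111 TPM, had the lowest Il2rg level of the 8 libraries. Il21r is counted here although it passed the filter through the T-bet lines, so that it had to differ.

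Il2ra encodes the IL-2 receptor alpha chain CD25, which raises the affinity for IL-2 and is a known activation marker (ENSMUSG00000026770.5, chromosome 2, 11642807 to 11693193, plus strand). It was at 174 and 58.3 CPM (GFP + Plum), 91.0 and 23.7 CPM (GFP + GATA3), 169 and 66.1 CPM (T-bet + Plum), and 133 and 55.3 CPM (T-bet + GATA3). Replicate 1 exceeded replicate 2 by 2.40- to 3.84-fold in every line, and all lines overlapped. The averaged log2 FC for T-bet was 0.36 (SE 0.54, edgeR FDR = 0.707), with an interval of 2 SE from -0.71 to 1.44. Its sign changed without T-bet + Plum replicate 1 (-0.047) or T-bet + GATA3 replicate 1 (-0.034). With replicate number as a block, an alternative, Il2ra was called (edgeR FDR = 0.0262). That alternative takes equal numbers to pair libraries, which the sources do not state.

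Il2ra was 1 of 12 genes (0.0811% of those tested) that were more than 2-fold higher in replicate 1 than in replicate 2 in all 4 lines. The others, a list set by the same rule, were Ankrd37, Atp7b, Bnip3, Ccl22, Mmp23, RP23-47O21.6, RP24-217J7.2, Slc16a3, Tmem45a, Trib3 and Zfp651. On the log2 CPM scale Il2ra was higher in replicate 1 by 1.58 in GFP + Plum, 1.35 in T-bet + Plum, 1.93 in GFP + GATA3 and 1.26 in T-bet + GATA3. Il15ra and Il7r were also higher in replicate 1 in all 4 lines, by 0.69 to 1.43 and 0.16 to 1.98. Whether equal numbers mark a shared harvest day is not given in the sources used here, and the part of the harvest in these values was not tested.

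**Figure D2:**
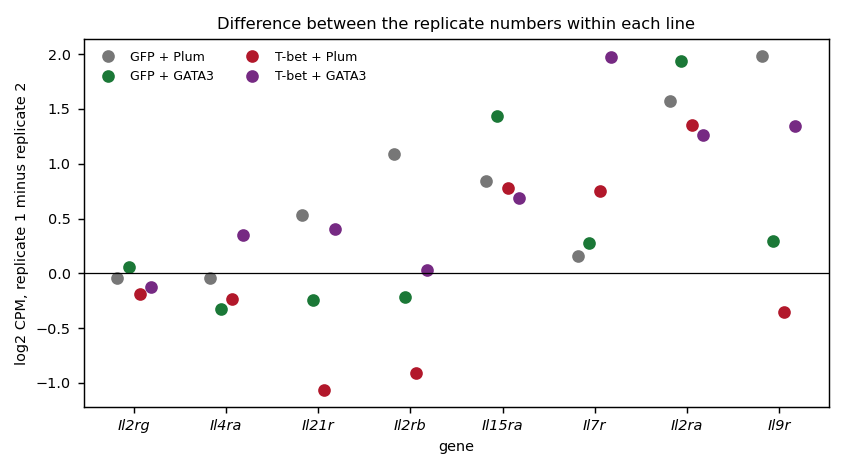
Log2 CPM of replicate 1 minus replicate 2 for each receptor gene tested, with 1 point for each of the 4 lines. All points of Il2ra lie between 1.26 and 1.93, those of Il15ra between 0.69 and 1.43, and those of Il2rg within 0.19 of 0.

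Il9r encodes the IL-9 receptor chain (ENSMUSG00000020279.10, chromosome 11, 32187541 to 32200279, minus strand). It was at 97.7 and 24.6 CPM (GFP + Plum), 73.4 and 59.9 CPM (GFP + GATA3), 51.6 and 65.8 CPM (T-bet + Plum), and 83.3 and 32.8 CPM (T-bet + GATA3). The lines overlapped, and the largest difference was the one between the GFP + Plum replicates. Its averaged log2 FC was -0.13 (SE 0.42, edgeR FDR = 0.879), with an interval of 2 SE from -0.98 to 0.72, and was positive without GFP + Plum replicate 1 (0.52) or T-bet + GATA3 replicate 2 (0.10).

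The 4 lines were then compared one with another. In T-bet + Plum versus GFP + Plum, 3 receptor genes were called higher and 1 lower, against 4.04% and 2.16% of all genes. The 3 include Il21r, which passed the filter through the T-bet lines and whose call is not read as a result. The log2 FC was 3.06 for Il21r (SE 0.48, edgeR FDR = 0.00957), 1.89 for Il2rb (SE 0.38, FDR = 0.0260) and -3.52 for Il7r (SE 0.61, FDR = 0.0145), in addition to Il4ra. Il15ra had a log2 FC of 1.78 that did not pass (FDR = 0.0851). The number called depended on single libraries, among the receptor genes and over all genes. With each library left out, the log2 FC ranged from 1.77 to 2.02 for Il4ra, 1.35 to 2.54 for Il2rb and -3.93 to -3.08 for Il7r.

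Where HA-GATA3 was present in both lines (T-bet + GATA3 versus GFP + GATA3), although with mean Gata3 levels of 184 and 304 CPM, 3 receptor genes were again called higher and 1 lower, against 3.73% and 2.05% of all genes. The log2 FC was 3.52 for Il21r (SE 0.59, edgeR FDR = 0.0121), 2.33 for Il15ra (SE 0.52, FDR = 0.0383) and -2.87 for Il7r (SE 0.54, FDR = 0.0204). For Il2rb it was 1.36 (FDR = 0.0883), which did not pass. Il21r, again among the 3 called higher, has the same limit from the filter. The number called again depended on single libraries, as it did over all genes. With each library left out, the log2 FC ranged from 1.69 to 2.08 for Il4ra, 1.73 to 3.20 for Il15ra and -4.22 to -2.11 for Il7r. The calls of Il2rb and Il15ra thus differed between the GATA3 states, but the interaction term, which tests the difference of the T-bet effects directly, called no receptor gene (0% of all genes). Its log2 FCs ran from -0.52 (Il2rb) to 0.71 (Il2ra), with SEs of 0.17 to 1.08. No receptor gene had an unadjusted p below 0.05 for the interaction by edgeR (lowest FDR = 1.00), beside 381 of the 14791 genes tested. DESeq2 also called 0.

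**Figure D3:**
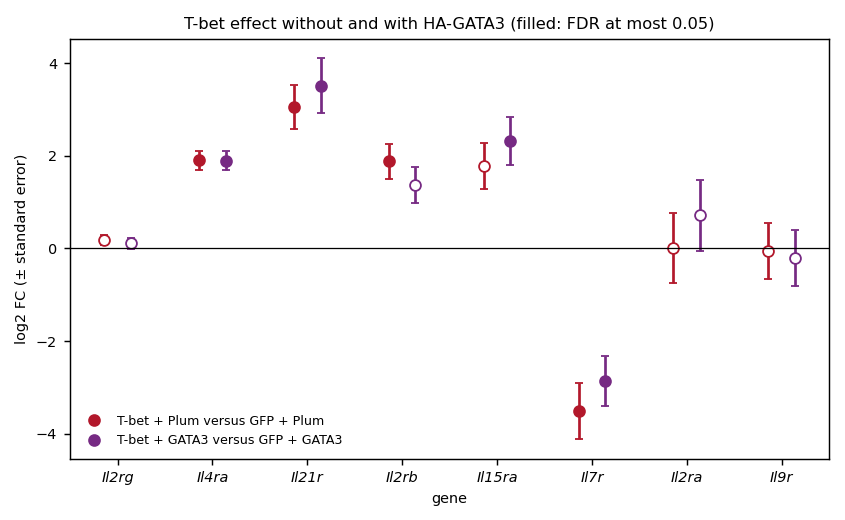
Log2 FC with its standard error for each receptor gene tested, without HA-GATA3 (T-bet + Plum versus GFP + Plum) and with it (T-bet + GATA3 versus GFP + GATA3). Filled points have an FDR of at most 0.05. Il4ra is at 1.90 in both comparisons and Il7r at -3.52 and -2.87. Il21r, at 3.06 and 3.52, passed the filter through the T-bet lines, so that it had to differ.

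With both factors compared to neither (T-bet + GATA3 versus GFP + Plum), Il4ra alone was called, with a log2 FC of 1.76 (SE 0.20, edgeR FDR = 0.00225), giving 1 gene higher and 0 lower against 3.44% and 1.43% of all genes. The log2 FC was 2.03 for Il21r (FDR = 0.0577), 2.03 for Il15ra (FDR = 0.0632), -2.29 for Il7r (FDR = 0.0541) and 0.87 for Il2rb (FDR = 0.281). Here too the number called depended on single libraries, among the receptor genes and over all genes. With each library left out, the log2 FC of Il4ra ranged from 1.56 to 1.89. Between the lines with 1 factor each (T-bet + Plum versus GFP + GATA3), 4 receptor genes were called higher and 1 lower, against 4.79% and 3.64% of all genes. These had log2 FCs of 4.55 (Il21r), 2.38 (Il2rb), 2.09 (Il15ra), 2.04 (Il4ra) and -4.10 (Il7r). The limit from the filter holds for Il21r here too. The number called depended on single libraries here as well, as it did over all genes. With each library left out, the log2 FC ranged from 1.85 to 2.76 for Il2rb and 1.49 to 2.96 for Il15ra. It ranged from 1.89 to 2.22 for Il4ra and -4.51 to -3.65 for Il7r. These comparisons share libraries with each other and with the averaged effect.

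The lines with HA-GATA3 were compared with those without it in the same fit. Averaged over both T-bet states, edgeR called 0 receptor genes, against 0.0608% of all genes, and DESeq2 called 0. By edgeR 2 receptor genes had an unadjusted p below 0.05, as did 733 of the 14791 genes tested. These 2 were Il21r, with a log2 FC of -1.26 (SE 0.39, FDR = 0.645), and Il2rb, with -0.76 (SE 0.27, FDR = 0.826). Il7r had a log2 FC of 0.90 (SE 0.41, FDR = 1.00), and each of its GFP + GATA3 libraries was above each GFP + Plum library. GFP + GATA3 versus GFP + Plum gave 0 calls by edgeR (0.0203% of all genes) and 0 by DESeq2. No receptor gene had an unadjusted p below 0.05 there, beside 547 of the 14791 genes tested. In that comparison Il2ra had a log2 FC of -1.03 and Il21r of -1.49 (FDR = 1.00 for both). Between T-bet + GATA3 and T-bet + Plum edgeR called 0 (0.0338% of all genes), and DESeq2 called 0. By edgeR 2 receptor genes had an unadjusted p below 0.05, as did 559 of the 14791 genes tested. The log2 FC in that comparison was -1.02 for Il2rb and -1.04 for Il21r.

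In the order of line means, GFP + GATA3 was lowest and GFP + Plum next for Il4ra, Il21r, Il2rb, Il15ra and Il2rg. Of the steps between neighbouring lines in that order, over the 8 genes tested, 1 passed the edgeR test, that from GFP + Plum to T-bet + GATA3 for Il4ra (FDR = 0.00225). For Il7r the order was T-bet + Plum, T-bet + GATA3, GFP + Plum and GFP + GATA3, from the lowest mean to the highest.

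The receptor genes lie in part side by side. Il4ra and Il21r are neighbours, and Il2ra and Il15ra are separated by 12.1 kb on chromosome 2. Among 4 other tested coding genes within 200 kb of Il4ra and Il21r, 0 were called by edgeR for the averaged T-bet effect, 1 had an unadjusted p below 0.05 (AC127333.1, log2 FC -0.33), and DESeq2 called 0. Their log2 FCs ran from -0.33 to 0.22. Around Il2ra and Il15ra, 1 of 4 was called, Pfkfb3, with a log2 FC of 0.76 (edgeR FDR = 0.0113). Pfkfb3 encodes an enzyme that raises the rate of glycolysis. Over all genes tested, edgeR called 8.55% higher and 6.61% lower, and 4322 of 14791 had an unadjusted p below 0.05. With 4 genes at each place, counts of 0 and 1 cannot be told from these shares.

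**Figure D4:**
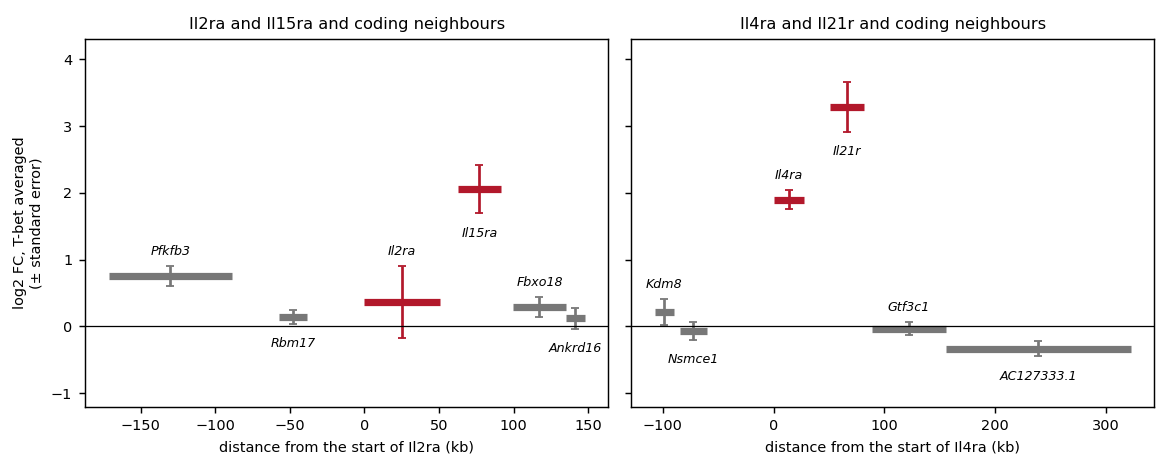
Averaged T-bet effect (log2 FC with its standard error) of the neighbouring receptor genes (red) and the other tested coding genes within 200 kb (grey), by distance from the start of Il2ra (left) or Il4ra (right). Thick bars span each gene. Il4ra at 1.90 stands above the grey genes of its panel at -0.33 to 0.22. Il21r, at 3.29, passed the filter through the T-bet lines, so that it had to differ.

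Promoter windows, from 250 bases before to 50 bases after an annotated start, were taken from RefSeq (GRCm38.p6) for 8 of the 9 genes, with 2 windows for Il15ra. Il2rb was not matched. The windows shown are those of receptor genes called for the averaged T-bet effect and, for Il2ra, of the neighbour of Il15ra that did not pass the test. The sequences were searched on both strands for AGGTGTG as a T-box motif, for AGATAA as a motif of GATA factors and for TTCNNNGAA as the GAS motif bound by STAT proteins, which do not overlap in these windows. Capitals mark the matches. The windows are chr7:125552021-125552320 for Il4ra, chr7:125603179-125603478 for Il21r, chr2:11705462-11705761 for Il15ra and chr2:11642542-11642841 for Il2ra, all on the plus strand, and chr15:9529827-9530126 on the minus strand for Il7r, each written 5′ to 3′.
Il4ra: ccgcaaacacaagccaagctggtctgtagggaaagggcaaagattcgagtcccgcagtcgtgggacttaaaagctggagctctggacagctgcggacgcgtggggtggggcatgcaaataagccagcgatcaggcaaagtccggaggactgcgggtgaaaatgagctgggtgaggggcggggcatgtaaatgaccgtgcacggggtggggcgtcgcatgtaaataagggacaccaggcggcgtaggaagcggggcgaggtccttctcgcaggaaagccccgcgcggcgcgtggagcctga
Il21r: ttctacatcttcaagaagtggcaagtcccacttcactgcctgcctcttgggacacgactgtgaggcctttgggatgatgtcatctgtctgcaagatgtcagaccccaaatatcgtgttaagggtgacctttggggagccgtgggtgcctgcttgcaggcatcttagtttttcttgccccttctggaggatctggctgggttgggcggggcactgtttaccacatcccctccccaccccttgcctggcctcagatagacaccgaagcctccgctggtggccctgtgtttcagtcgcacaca
Il15ra: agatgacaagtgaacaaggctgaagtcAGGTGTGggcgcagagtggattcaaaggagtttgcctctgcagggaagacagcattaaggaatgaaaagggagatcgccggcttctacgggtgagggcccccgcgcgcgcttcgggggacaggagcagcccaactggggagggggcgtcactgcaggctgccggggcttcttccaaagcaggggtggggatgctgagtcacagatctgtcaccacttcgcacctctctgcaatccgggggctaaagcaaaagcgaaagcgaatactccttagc
Il2ra: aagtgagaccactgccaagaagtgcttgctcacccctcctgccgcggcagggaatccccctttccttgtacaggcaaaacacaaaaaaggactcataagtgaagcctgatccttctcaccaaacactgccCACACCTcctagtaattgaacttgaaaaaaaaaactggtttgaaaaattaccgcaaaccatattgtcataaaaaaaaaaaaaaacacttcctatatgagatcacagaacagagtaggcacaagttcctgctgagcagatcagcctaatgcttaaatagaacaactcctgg
Il7r: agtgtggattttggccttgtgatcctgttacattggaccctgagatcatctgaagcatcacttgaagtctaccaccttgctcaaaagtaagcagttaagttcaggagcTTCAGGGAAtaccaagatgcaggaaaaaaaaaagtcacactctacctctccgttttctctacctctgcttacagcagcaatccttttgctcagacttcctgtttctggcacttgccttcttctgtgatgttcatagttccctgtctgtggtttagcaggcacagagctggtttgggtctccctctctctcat

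The T-box motif was found in the Il15ra window shown and in that of Il2ra, the GAS motif in that of Il7r, and no match to the 3 motifs in those of Il4ra and Il21r. Of the windows not shown, that of Il9r held 2 GATA matches and the other Il15ra window, Il2rg and Il13ra1 held none. Of 32851 such windows of all genes, 5.84% held the T-box motif, 11.2% the GATA motif and 8.30% the GAS motif. A match is a description of letters and was not tested as a site.

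The counts of a gene can come from transcripts that do not encode the receptor. As a share of a gene's TPM, transcripts annotated as protein-coding made up 100% for Il2rb, 98.3 to 99.2% for Il2rg, 90.9 to 96.1% for Il2ra, 73.0 to 81.4% for Il9r, 92.8 to 100% for Il21r, 37.2 to 66.6% for Il4ra, 26.7 to 47.2% for Il15ra and 24.4 to 70.7% for Il7r. By estimated counts, on which the tests rest, the coding share was 16.6 to 49.8% for Il4ra, 27.3 to 40.8% for Il15ra and 64.4 to 89.3% for Il7r. For Il4ra a transcript of 3696 bases annotated as a target of nonsense-mediated decay held 23.6 to 57.9% of TPM. The same transcript held 43.9 to 80.5% of the estimated counts of Il4ra. Its share of TPM was 23.6 to 57.9% without T-bet and 32.4 to 39.1% with it, so the ranges overlapped. Of 34 transcripts with at least 10 estimated counts in a library, a limit set after the values were seen, 4 had a higher and 2 a lower share of TPM in all libraries with T-bet than in any without it. For Il15ra a coding transcript of 1600 bases held 0% without T-bet and 11.7 to 19.1% with it, a processed transcript of 1408 bases held 0 to 5.29% and 13.1 to 25.6%, and a retained intron transcript of 2315 bases 10.4 to 17.2% and 17.9 to 21.5%. For Il2rb, the longer of 2 coding transcripts (4194 bases) held 41.5 to 50.8% of TPM in the libraries without T-bet and 58.4 to 76.6% in those with it, and the shorter (1895 bases) the remainder. The other was a coding Il2rg transcript of 1670 bases, at 53.2 to 54.6% without T-bet and 49.0 to 52.3% with it. The 2 Il2rb transcripts make up that gene, so a higher share of the longer is a lower share of the shorter. The pattern was not counted over the transcripts of all genes, so the counts of 4 and 2 are a description. By estimated counts the shares of the longer Il2rb transcript were 61.6 to 70.0% and 76.1 to 88.1%. For Il7r a processed transcript of 359 bases held 46.9 to 71.6% of TPM without T-bet and 0 to 65.6% with it, where it had at most 5.90 estimated counts. The authors' quantification splits fragments between transcripts by a model, the error of that split was not measured here, and these shares are given without a test.

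Genes that act with the receptors were taken from lists. Of 8 ligand genes, 3 passed the filter, and Il2 and Il4 were called higher for the averaged T-bet effect, where 8.55% of all genes tested were. Il2, the ligand of the receptor built from Il2ra, Il2rb and Il2rg, was at 165 and 178 CPM (GFP + Plum), 80.5 and 74.0 CPM (GFP + GATA3), 494 and 307 CPM (T-bet + Plum), and 266 and 383 CPM (T-bet + GATA3). Its log2 FC was 1.65 (SE 0.17, edgeR FDR = 0.000673). Il4, the ligand of IL-4Rα, was listed at 0 counts in both GFP + Plum libraries, at 0 and 12 in GFP + GATA3, 3 and 12 in T-bet + Plum, and 25 and 23 in T-bet + GATA3. Il4 passed the filter through the T-bet lines, so that it had to differ, and its call (edgeR FDR = 0.0416) is not read as a result. The number of ligand genes called depended on single libraries, as did the number over all genes. Tslp, whose product binds a receptor that contains the Il7r chain, was called in no comparison. Il7, Il9, Il13, Il15 and Il21 had at most 6 counts in any library and were not tested. Of the ligands of the receptors that were higher, Il15 had 0 counts in every library, and Il21 had 3 counts, the floor, in T-bet + GATA3 replicate 2 and at most 1 in the others.

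Of 7 JAK and STAT genes, all of which were tested, 4 were higher with T-bet and 0 lower by edgeR, against 8.55% and 6.61% of all genes. Stat5a, which encodes a main mediator of IL-2, IL-7, IL-9 and IL-15 signals, was at 65.4 and 70.0 CPM (GFP + Plum), 47.1 and 54.6 CPM (GFP + GATA3), 243 and 216 CPM (T-bet + Plum), and 235 and 236 CPM (T-bet + GATA3). Its log2 FC was 1.99 (SE 0.090, FDR = 9.09e-06). The others were Tyk2 (log2 FC 1.01, FDR = 0.00441), Stat5b (0.70, FDR = 0.0308) and Jak3 (0.70, FDR = 0.0141), whose product binds the gamma chain. Stat3 (0.30, FDR = 0.151), Stat6 (0.34, FDR = 0.0963), which transmits IL-4 signals, and Jak1 (-0.0093, FDR = 0.979) did not pass. The number of JAK and STAT genes called depended on single libraries, as did the number over all genes. The median log2 FC of the list was 0.70.

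Of 9 feedback and STAT5 target genes, 8 were tested and 2 were called higher and 0 lower for the averaged T-bet effect by edgeR, against the same 8.55% and 6.61% of all genes. Pim1, which encodes a growth-promoting kinase, had a log2 FC of 1.44 (SE 0.15, FDR = 0.000589), and Ccnd2, which encodes cyclin D2, of 0.86 (SE 0.10, FDR = 0.00121). The number of feedback and target genes called depended on single libraries, as did the number over all genes. Bcl2, which encodes a survival factor downstream of IL-7, did not pass in the averaged comparison (-0.29, FDR = 0.0800). It was lower in T-bet + GATA3 versus GFP + Plum (FDR = 0.0120), at 54.2 and 53.4 CPM against 85.5 and 106 CPM. In T-bet + Plum it was at 80.3 and 88.0 CPM and was not called against GFP + Plum (log2 FC -0.19, FDR = 0.506). In GFP + GATA3 it was at 69.8 and 71.6 CPM. Its averaged GATA3 log2 FC was -0.54 (SE 0.095, FDR = 0.153), also not called. Socs3 had 0 counts in every library. Of 15 other receptor genes of the same superfamily, 5 were tested and 1 was called (6.61% of all genes were lower), Il6ra, the IL-6 receptor alpha chain, which was lower with T-bet (log2 FC -1.75, SE 0.23, FDR = 0.00174). It was at 10.7 and 10.4 CPM (GFP + Plum), 20.5 and 24.9 CPM (GFP + GATA3), 3.24 and 3.28 CPM (T-bet + Plum), and 8.87 and 4.32 CPM (T-bet + GATA3). Like Il7r, Il6ra was lowest in T-bet + Plum and highest in GFP + GATA3. For the averaged GATA3 effect edgeR called 0 genes of each of these 4 lists (0.0608% of all genes). An unadjusted p below 0.05 was found for 3 ligand genes, 0 JAK and STAT genes, 3 feedback and target genes and 2 other receptor genes. Over all genes, 733 of the 14791 tested had such a p. The ligand genes include Il4, at 0 counts in both GFP + Plum libraries, whose p is not read as a result. The other receptor genes include Il5ra, at 5 and 8 counts in GFP + Plum. DESeq2 called 1, 0, 2 and 1 genes of the lists in the same order (0.59% of all genes).

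The log2 CPM of each called receptor gene was compared over the 8 libraries with that of the tested coding genes. By Pearson's r, the closest were Uba7 (0.996), Cd160 (0.995) and Arl4d (0.995) for Il4ra. For Il21r they were Fyn (0.994), Intu (0.992) and Mmab (0.989), and for Il2rb Stn1 (0.980), AC123679.2 (0.979) and Lmo4 (0.978). For Il15ra they were Tefm (0.990), Adck1 (0.988) and Parn (0.986), and for Il7r Aldh2 (0.989), Tmigd3 (0.989) and Csf1 (0.986). The 8 points share the split between lines with and without T-bet, and these values are a description. For Il21r this split had to be present, since the gene passed the filter through the T-bet lines.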

How the data were processed

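RNA-seq libraries of 4 EL4 lines, 2 per line, were analysed. Per the submitters' processing notes, FastQC, Trim Galore and kallisto were used with mm10, and the paper's methods name Gencode M20 whereas the deposited values are labelled M18. The authors deposited 2 values for each of 136535 transcripts and each library, estimated counts that are not normalised and TPM that they scaled for transcript length and depth.

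Estimated counts and TPM were summed per gene by symbol, the counts were rounded, and 14791 of 54146 genes passed filterByExpr. These were tested with edgeR 4.0.16 in R 4.3.3 (TMM, glmQLFit and glmQLFTest, Benjamini-Hochberg), with each line as a group. A gene was called at an FDR of at most 0.05, which differs from the threshold of the study, and the CPM are TMM-scaled. Log2 CPM for replicate differences and correlations used a prior count of 2. Positions come from Gencode M21 on GRCm38, and promoter sequences from RefSeq. Library totals were 8038565 to 16003519 estimated counts, and 3 counts corresponded to 0.188 to 0.373 CPM of the unscaled total, which covers counting error only. The chi-square per degree of freedom between the replicates of each line was 10.2 to 30.9, above counting error.

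The receptor genes and lists were chosen with earlier results of these data known. All 9 receptor genes are named, with list genes called in any comparison, list genes not tested, Tbx21 and Gata3. For each receptor gene called for T-bet, the 3 tested coding genes with the highest Pearson's r are also named. Other list genes are named as not passing, chosen after their values were seen. The list of JAK and STAT genes leaves out 1 gene, which is not reported here. Alternatives were DESeq2 1.42.0, transcript length offsets, library size only, no filter, at least 10 counts in every library, limma 3.58.1 on log2(TPM + 1), a replicate block, the libraries of a contrast alone, the threshold of the study (FDR of at most 0.05 and log2 FC above 1.5 in size) and each library left out. The scripts were tested on simulated data. Python 3.11.15, numpy 2.4.6, pandas 2.3.3 and matplotlib 3.10.9 were used.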

Additional observations from a re-analysis of the deposited data

How the results depend on the processing

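For the averaged T-bet effect 5 receptor genes were called with each library left out in turn, by DESeq2, by limma on log2(TPM + 1), with transcript length offsets, under library size only and at the threshold of the study. Without a filter on low counts 6 were called, with Il2ra added (FDR = 0.0449) and 3179 of all genes against 2242 with it, and with at least 10 counts in every library 4, because Il21r was then not tested. In T-bet + GATA3 versus GFP + Plum the count of 1 became 3 by DESeq2, 2 under library size only and 5 without the filter. All genes called there went from 721 to 981, 683 and 1698 in the same order. The count of 4 between T-bet + GATA3 and GFP + GATA3 became 2 with transcript length offsets or limma. All genes called in that comparison fell from 854 to 748 and 549. Without the filter 1 receptor gene was called in GFP + GATA3 versus GFP + Plum, where all genes called rose from 3 to 293. Where T-bet + GATA3 was compared with T-bet + Plum the count was 1, and all genes called rose from 5 to 228. For the averaged GATA3 effect it was 3, and all genes called rose from 9 to 373. The cause of these changes was not tested. With each library left out in turn, 1 library was left in its line. The number called then changed, among the receptor genes and over all genes, in each comparison of a T-bet line with a line without it. In these fits the averaged T-bet log2 FC ranged from -0.047 to 0.99 for Il2ra and from -0.56 to 0.52 for Il9r.

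For the averaged T-bet effect on the lists, requiring 10 counts or more per library left 1 ligand gene called. Of the JAK and STAT genes 1 was called at the threshold of the study and 2 by limma, and of the feedback and target genes 0 at that threshold and 4 by DESeq2 or without the filter. With each library left out, the numbers of ligand, JAK and STAT, and feedback and target genes called changed, as did the number over all genes. For the averaged GATA3 effect, where edgeR called 0, DESeq2 called 1 ligand gene, 2 feedback and target genes and 1 other receptor gene, no filter gave 3, 2 and 2, and length offsets gave 1 feedback gene.

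The replicate numbers are shared between lines. After subtraction of each line mean, libraries with equal numbers had correlations over genes (not independent replicates) of r = -0.0455 to 0.302 for the 6 pairs of lines, so the numbers were not taken to pair the libraries. With the replicate block, all genes called for the averaged T-bet effect rose from 2242 to 3063. For that effect 6 receptor genes were called, including Il2ra (log2 FC 0.47, edgeR FDR = 0.0262), 5 feedback and target genes and 2 other receptor genes. In T-bet + GATA3 versus GFP + Plum the block gave 3 receptor genes, and all genes called rose from 721 to 1110.

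With 2 libraries per line, FDRs near the threshold depended on single libraries, and Il21r, at 2 to 13 counts without T-bet, and Il7r, at 11 to 38 counts with it, were limited by depth.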
